A study of Homo sapiens with 12 samples.

Results

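Among the 23292 gene symbols in the deposited expression tables, 231 long noncoding RNA symbols were named as antisense to another gene (a name that ends in -AS and a number) or as intergenic (a name that begins with LINC) and reached 100 as the mean of their normalized values. The name rule alone was met by 1099 symbols, 731 antisense and 368 LINC. The members were chosen by their name and by this mean over all samples, so all levels below are a description and no test was applied to them. Of the 231 members, 180 were antisense RNAs and 51 were LINC RNAs. The 3 members just above the limit were LINC00963 at 102, TRHDE-AS1 at 103 and EP300-AS1 at 104, and the 3 symbols just below it were LINC00857 at 98.9, CCNT2-AS1 at 97.5 and SCAMP1-AS1 at 97.2.

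The libraries came from HEK293T cells, a human embryonic kidney line that carries the SV40 large T antigen. Cells were treated for 6 h with vehicle (DMSO) or with AA263, AA263yne or AA263-5, each at 10 µM, with 3 samples in each of the 4 groups. AA263 activates ATF6, a transcription factor of the endoplasmic reticulum (ER) stress response, and AA263yne and AA263-5 are analogs of it, the first carrying an alkyne. The level used throughout is the authors' mean over all 12 samples of normalized values, which sum to 36.6 M over all symbols. The methods name RPKM, already divided by gene length, as the input to the normalization, so the exact scale of the mean is uncertain; the levels per kilobase given below treat it as reads. It is 1 value per gene, so vehicle and the 3 compounds could not be separated, no error between replicates can be given, and no comparison between treatments was made here. The methods state a nominal sequencing depth per sample, but the depth that each library reached cannot be read from a mean.

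The line's markers were checked on the same scale. The neurofilament genes NEFL and NEFM, which HEK293 cells express, had levels of 2225 and 3786, the related INA had 704, the RNA-binding protein gene LIN28B had 631 and the mesenchymal filament gene VIM had 18797. PAX2, a transcription factor of embryonic kidney, was low at 27.7. The 8 markers of blood, endothelium, hepatocytes and keratinocytes lay between 0.321 (CDH5) and 4.79 (APOA1).

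Long noncoding RNAs are transcribed and mostly spliced and polyadenylated like messenger RNAs, but are not annotated as templates for long proteins. An antisense RNA is read from the strand opposite a named neighbour, its partner, and may begin at the same promoter region, run into the partner's far end or lie within it. LINC is the name given to RNAs first annotated as lying between protein-coding genes. Some act in the nucleus on nearby genes, others bind proteins or microRNAs in the cytoplasm, some are carriers of small nucleolar RNAs in their introns, and a few proved to encode very short proteins.

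The last class was seen at once when the members were placed on the current human annotation. Of the 219 members that could be placed, 208 are long noncoding RNAs in GENCODE 44, 9 are protein-coding genes and 2 are pseudogenes. The 9 reading frames encode 55 to 99 amino acids, with a median of 68. LINC01420 is now NBDY, whose product associates with the messenger RNA decapping machinery; LINC00493 is SMIM26, a small mitochondrial protein gene; LINC00998 is SMIM30, a small membrane protein gene; and LINC00116 is MTLN, a peptide of the inner mitochondrial membrane. Their 4 reading frames are shown because they carry the reason why these RNAs no longer count as noncoding. The start and stop codons are in capitals, and the sequences are those of the GENCODE 44 transcripts on GRCh38.
LINC01420: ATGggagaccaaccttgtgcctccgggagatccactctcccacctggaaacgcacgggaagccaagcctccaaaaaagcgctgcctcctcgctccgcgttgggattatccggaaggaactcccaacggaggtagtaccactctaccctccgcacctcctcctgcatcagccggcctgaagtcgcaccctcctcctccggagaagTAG
LINC00493: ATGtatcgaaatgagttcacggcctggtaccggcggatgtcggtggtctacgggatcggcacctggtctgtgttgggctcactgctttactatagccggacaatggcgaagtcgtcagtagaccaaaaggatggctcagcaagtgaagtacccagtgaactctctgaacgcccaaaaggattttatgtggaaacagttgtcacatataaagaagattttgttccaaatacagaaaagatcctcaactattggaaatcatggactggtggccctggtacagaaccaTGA
LINC00998: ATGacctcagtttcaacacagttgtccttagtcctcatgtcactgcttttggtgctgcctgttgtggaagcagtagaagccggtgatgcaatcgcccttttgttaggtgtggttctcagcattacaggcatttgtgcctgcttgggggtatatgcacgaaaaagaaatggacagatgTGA
LINC00116: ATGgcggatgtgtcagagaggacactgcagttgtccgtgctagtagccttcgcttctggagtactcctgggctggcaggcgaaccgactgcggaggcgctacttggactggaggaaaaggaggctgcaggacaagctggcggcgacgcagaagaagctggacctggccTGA

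These short frames came from RNAs of very different levels. LINC01420 (chrX:56729241-56819179, plus strand) was the LINC RNA with the highest level, 3086, and its frame of 207 bases fills 8.83% of the 2344-base transcript. LINC00493 (chr20:18567347-18569563, plus strand) had a level of 1349, and its frame of 288 bases fills 58.8% of a transcript of 490 bases. LINC00998 (chr7:113116718-113118560, minus strand) had a level of 1039 and a frame of 59 codons before the stop. LINC00116 (chr2:110211529-110245420, minus strand) had a level of 439 and a frame of 56 codons. On the per-kilobase scale, which divides a level by the merged exon length of the gene, LINC01420 and LINC00493 lay at 1232 and 1229, LINC00998 at 564 and LINC00116 at 214.

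The other 5 recoded members were MMP24-AS1 (now MMP24OS) at a level of 3079, LINC00094 (BRD3OS) at 1762, NCBP2-AS2 (NCBP2AS2) at 407, SPTY2D1-AS1 (MISFA) at 198 and TOPORS-AS1 (SMIM27) at 158. Their frames encode 71, 84, 99, 59 and 55 amino acids in that order. Of the 8 LINC RNAs with a level of at least 1000, 4 are annotated as protein-coding, namely LINC01420, LINC00094, LINC00493 and LINC00998.

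Most symbols of this kind were low in these cells. Of the 1099 symbols that met the name rule, 21.0% reached a level of 100, against 51.4% of the 22170 other symbols. The share was 24.6% of antisense and 13.9% of LINC symbols. Levels below 1 were found for 79 antisense and 83 LINC symbols, and levels of 1000 or more for 23 and 8. Together the 231 members held 0.562% of the summed levels of all symbols, and MIF-AS1 alone made up 31.9% of the members' sum and the top 5 members 46.5% of it. Without MIF-AS1 the members held 0.383% of all summed levels.

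Among the members the median level was 286, with quartiles at 154 and 599 and a range from 102 to 65455. The plot of ranked levels shows a short steep head and a long flat tail. Only 31 members reached 1000 and 5 reached 5000, all 5 of them antisense. Per kilobase of exon, the 219 placed members had a median of 78.0, against 201 for 10722 protein-coding symbols and 95.0 for the 85 other long noncoding RNA symbols at the same limit. Antisense members had a median of 84.2 per kilobase and LINC members 43.9, while without length division their medians were closer, at 295 and 253. Placed members had a median merged exon length of 4370 bases, and their longest transcripts had a median of 3 exons.

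**Figure D1:**
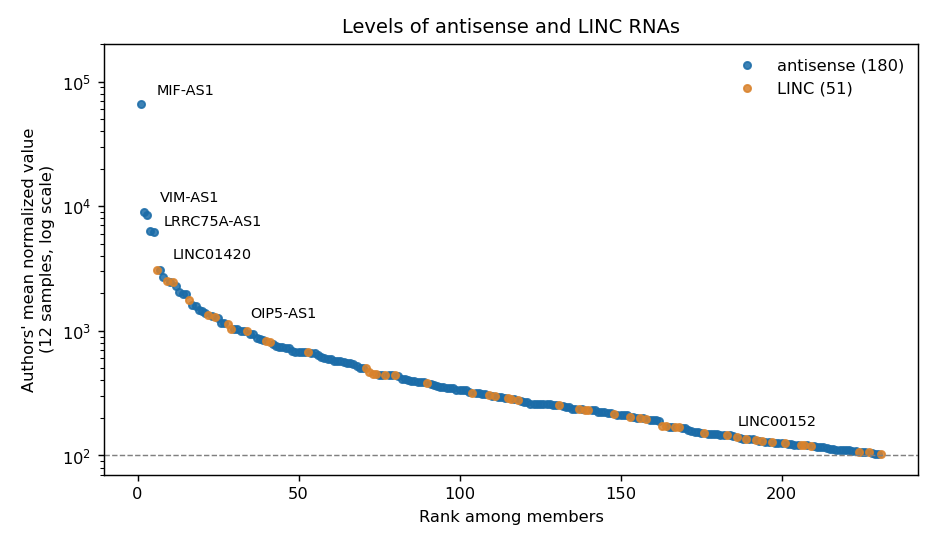
The authors' mean normalized value over 12 samples (log scale) of each of the 231 members against its rank, with 180 antisense RNAs in blue and 51 LINC RNAs in orange; the dashed line marks the limit of 100. MIF-AS1 at 65455 stands above all others, the next is VIM-AS1 at 8916, and most members lie below 1000.

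The antisense RNA with the highest level was MIF-AS1 (chr22:23894426-23898930, minus strand), at 65455. Its partner MIF encodes a secreted inflammatory cytokine, and 687 of the 1476 exon bases of MIF-AS1, or 46.5%, lie opposite MIF exons. In addition, 61.2% of its exon bases lie on exons of another gene on the same strand. The level of MIF itself was not analysed here, so the level of MIF-AS1 could not be set against that of the bases it shares with MIF. VIM-AS1, antisense to the gene of the intermediate filament protein vimentin, followed at 8916. LRRC75A-AS1, today named SNHG29 as a small nucleolar RNA host gene, had 8524 and holds SNORD49A, SNORD49B and SNORD65 within its bounds.

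Next came VPS9D1-AS1 at 6378 and SLC25A5-AS1 at 6206, the latter opposite the gene of a mitochondrial ADP/ATP carrier. Further antisense RNAs among those of highest level were MMP24-AS1 at 3079, FGD5-AS1 at 2722, PRMT5-AS1 at 2467, PCNA-AS1 at 2303, TAPT1-AS1 at 1990 and CERS6-AS1 at 1987. Their partners include an arginine methyltransferase gene (PRMT5), the gene of the sliding clamp of DNA replication (PCNA) and a ceramide synthase gene (CERS6).

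LINC RNAs reached lower levels. After LINC01420, LINC00674 had 2502 and LINC01296 had 2462; the latter is now the pseudogene DUXAP9, a member of a repeated family, so its reads may be shared with near-identical copies. LINC00094, LINC00493, LINC01278 at 1284, LINC00641 at 1129 and LINC00998 were the other LINC RNAs above 1000. LINC01000 at 988, LINC01128 at 826, LINC01061 at 814 and LINC01578 at 673 completed the top 12. LINC01578 is CHASERR, which lies next to CHD2 and is known to restrain it.

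Several members are known for functions in RNA control. OIP5-AS1, the mammalian cyrano RNA, which binds the microRNA miR-7, had a level of 1030. EPB41L4A-AS1, a small nucleolar RNA host that holds SNORA13, had 441. MCM3AP-AS1 had 677, LINC00665 286, LINC00467 232, LINC00662 135 and LINC00152 (CYTOR) 133. LINC-PINT, a p53-induced RNA, at 55.8 and LINC00511 at 0.557 were below the limit and are no members. LINC00657, LINC00338 and LINC00205 were searched for under these symbols and matched no symbol analysed here, but NORAD, the present name of LINC00657, had a level of 6654.

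Long noncoding RNAs with other names give a scale. NORAD, which binds Pumilio proteins, and TUG1 at 6692 lay above all LINC members. DANCR had 4656 and the small nucleolar RNA hosts SNHG1, ZFAS1 and GAS5 had 3412, 1345 and 1209. The nuclear RNAs MALAT1 and NEAT1, which are abundant in many cells, had only 278 and 204. HOTAIRM1 of the HOXA cluster had 509, KCNQ1OT1 159, HOTAIR 116 and H19 99.1. MEG3 and CYTOR were looked up as well and matched no symbol under those names.

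Small RNAs lay within 11 members. MicroRNA genes were found within 6, among them GABPB1-AS1 (MIR4712), LINC00152 (MIR4435-1) and TTC28-AS1 (MIR3199-2, level 556). Small nucleolar RNAs were found within 5, of which LINC00888, at a level of 299, holds 4 and LRRC75A-AS1 holds 3. TMEM161B-AS1 and UBA6-AS1 hold SNORA70 and SNORA62.

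The name rule itself selects RNAs annotated on the strand opposite a partner, so overlap with the partner is largely set by the names, while the arrangement and the distance between starts were not part of the rule. Of the 180 antisense members, 169 could be placed with their partner. The first part of the member overlapped the first part of the partner in 60 pairs, and the ends overlapped tail to tail in 40. In 28 pairs both genes ran away from each other without overlap, in 26 the member lay inside the partner and in 15 it spanned the partner. Gene bodies overlapped in 141 pairs (83.4%) and exons in 130 (76.9%), by a median of 425.5 exon bases. Start sites lay within 1 kb of each other in 64 pairs (37.9%), at a median distance of 275.5 bases. The member began upstream of the partner in 27 of these and inside it in 37. The current annotation has given 21 members a new name that ends in -DT, for divergent transcript, and their levels ran from 110 to 739.

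Pairs with close starts are shown by the promoter windows of their antisense RNAs, which are the windows counted for CpG content below. They are the 3 with the closest annotated starts among the 40 antisense members of highest level. Each window runs from 250 bases before the start of the antisense RNA to 50 after it, taken from RefSeq on GRCh38.p14, and CpG dinucleotides are in capitals.
TRIM52-AS1, chr5:181260962-181261261, plus strand: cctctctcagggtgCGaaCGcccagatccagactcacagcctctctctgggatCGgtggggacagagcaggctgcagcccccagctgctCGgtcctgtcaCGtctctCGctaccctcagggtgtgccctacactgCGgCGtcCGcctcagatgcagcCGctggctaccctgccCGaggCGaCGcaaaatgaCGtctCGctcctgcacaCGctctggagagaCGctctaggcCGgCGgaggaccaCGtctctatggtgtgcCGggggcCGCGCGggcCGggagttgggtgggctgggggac
ZNF503-AS2, chr10:75401278-75401577, plus strand: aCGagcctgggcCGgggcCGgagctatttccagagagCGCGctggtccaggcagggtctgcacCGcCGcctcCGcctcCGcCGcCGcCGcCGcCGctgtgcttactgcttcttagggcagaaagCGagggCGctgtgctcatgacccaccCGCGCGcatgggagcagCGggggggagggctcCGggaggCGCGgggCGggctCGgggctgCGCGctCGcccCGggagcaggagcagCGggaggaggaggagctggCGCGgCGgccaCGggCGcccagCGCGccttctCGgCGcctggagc
THAP9-AS1, chr4:82900867-82901166, minus strand: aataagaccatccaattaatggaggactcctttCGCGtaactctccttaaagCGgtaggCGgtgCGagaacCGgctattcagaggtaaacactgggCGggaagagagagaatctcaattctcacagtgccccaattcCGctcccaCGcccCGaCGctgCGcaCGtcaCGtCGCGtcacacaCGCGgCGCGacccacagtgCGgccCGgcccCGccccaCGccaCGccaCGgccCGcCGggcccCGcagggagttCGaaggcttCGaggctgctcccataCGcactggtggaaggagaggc

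The 3 windows hold 25, 39 and 32 CpG dinucleotides, at a GC content of 68.0%, 76.7% and 63.3%. TRIM52-AS1 and TRIM52 start 19 bases apart in GENCODE and do not overlap. TRIM52-AS1 had a level of 1386 and TRIM52, a tripartite motif gene, had 240. ZNF503-AS2 starts 245 bases inside ZNF503, a zinc finger gene, and had a level of 990 against 26335 for ZNF503. THAP9-AS1 starts 276 bases inside THAP9, a gene derived from a DNA transposon, and had 935 against 327. Per kilobase, TRIM52-AS1 was 23.3 times TRIM52 and THAP9-AS1 2.82 times THAP9, while ZNF503 was 27.8 times ZNF503-AS2, so closely spaced starts went with either order of levels.

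A window was counted as CpG rich with an observed to expected CpG ratio of at least 0.6 and a GC content of at least 50%. This held for 119 of the 172 members with a window (69.2%), against 46.9% of all 35116 windows in the table. For the symbols of the same name rule below a level of 100 the share was 49.3% of 576, and for protein-coding symbols at the same limit it was 85.5% of 8858. Antisense members had 70.8% and LINC members 62.9%. Antisense RNAs that start within 1 kb of their partner had 46 CpG-rich windows of 52 (88.5%), and those that start further away had 51 of 83 (61.4%). The window of an antisense RNA that begins just upstream of its partner can include the partner's own start, so its bases were not separated from the partner's promoter. The letters TATAAA on either strand were present in 6.40% of the members' windows, against 11.5% of all windows and 4.56% of those of protein-coding symbols at the limit.

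**Figure D2:**
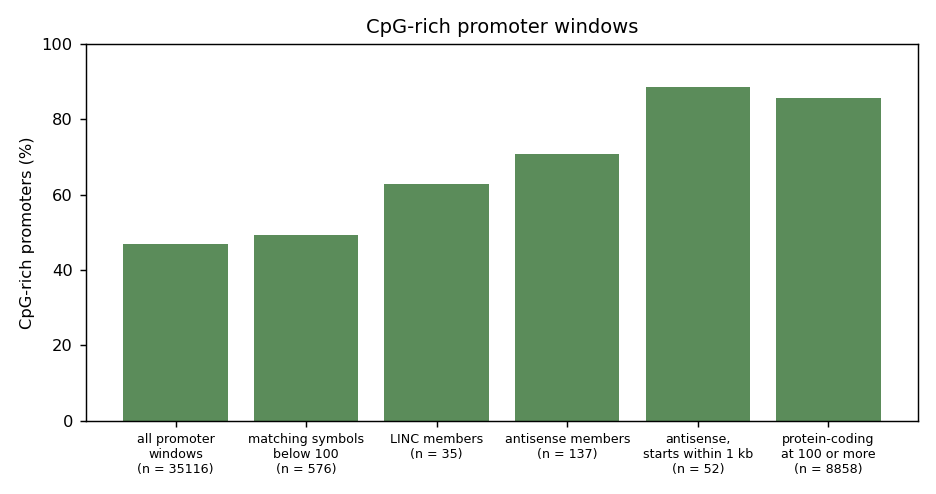
Share of promoter windows (250 bases before to 50 after the start) that are CpG rich, in percent from 0 to 100, with the number of windows under each bar. Antisense members that start within 1 kb of the partner (88.5%), whose windows can include the partner's own start, lie near protein-coding symbols (85.5%). LINC members (62.9%) lie lower, and symbols of the same name rule below a level of 100 (49.3%) lie near all windows (46.9%).

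Levels of antisense RNAs and partners were compared per kilobase in the 168 pairs with both values. The partner was higher in 112 pairs and the antisense RNA in 56. The median ratio of partner to antisense RNA was 2.13, with quartiles at 0.525 and 7.14. Among pairs with starts within 1 kb the median ratio was 3.28 and the antisense RNA was higher in 15 of 64; among the others it was 1.58 and the antisense RNA was higher in 41 of 104. Spearman's rho between the 2 levels was 0.26 across the 168 pairs. It was 0.28 in the 129 pairs whose exons overlapped and 0.22 in the 39 whose exons did not. In pairs with starts within 1 kb the same split gave 0.42 (36 pairs) and 0.09 (28 pairs), and in pairs with starts further apart it ran the other way, 0.22 (93 pairs) and 0.44 (11 pairs). The points share the same 12 libraries and, where exons overlap, the same genomic bases, and rho is given as a description.

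**Figure D3:**
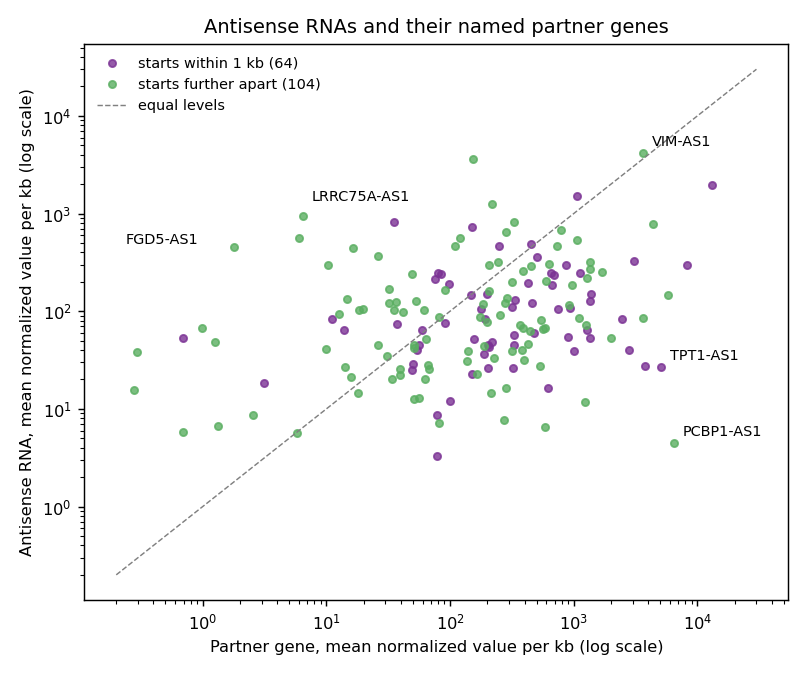
Mean normalized value per kilobase of the antisense RNA against that of its partner (both log scales) for 168 pairs, 64 with starts within 1 kb in purple and 104 others in green; the dashed line marks equal levels. Points spread widely on both sides of the line, from FGD5-AS1 at 250 times FGD5 to PCBP1 at 1447 times PCBP1-AS1.

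Per kilobase, the 5 antisense RNAs furthest above their partners stood opposite genes of low level. FGD5-AS1 was 250 times FGD5, a gene of endothelial cells with a level of 14.6. LRRC75A-AS1 was 148 times LRRC75A, TSPEAR-AS2 130 times TSPEAR, MMP24-AS1 92.7 times the metalloproteinase gene MMP24 and MAGI2-AS3 77.5 times the scaffold gene MAGI2. The 5 partners had levels from 1.31 to 26.3. At the other end were partners of high level. PCBP1, an RNA-binding protein gene, was 1447 times PCBP1-AS1, TPT1 was 188 times TPT1-AS1, UBL7 138 times UBL7-AS1, the lactate transporter gene SLC16A1 104 times SLC16A1-AS1 and the nuclear receptor gene NR2F1 88.8 times NR2F1-AS1. These ratios, and which pairs lie at the ends, depend on the division by merged exon length. Without it the 5 pairs above were PCBP1 at 74.3 times PCBP1-AS1, TPT1 93.4 times TPT1-AS1, UBL7 64.7 times UBL7-AS1, SLC16A1 52.1 times SLC16A1-AS1 and NR2F1 17.1 times NR2F1-AS1. The 5 pairs furthest to the partner's side were then those of GNAS-AS1 (GNAS at 232 times), EP300-AS1 (EP300 at 109 times), TPT1-AS1, PCBP1-AS1 and IPO9-AS1 (IPO9 at 66.5 times). The 5 antisense RNAs furthest above their partners were then LRRC75A-AS1 at 355 times, FGD5-AS1 at 186, CKMT2-AS1 at 168, ASB16-AS1 at 135 and MMP24-AS1 at 117, while TSPEAR-AS2 was at 88.4 and MAGI2-AS3 at 40.5.

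Exon overlap matters to how far such levels can be read, because the strand setting of the counting is not given in the sources used here. If reads were counted without regard to strand, reads from a partner would also count for the antisense RNA over their shared bases. Any exon base opposite an exon of another gene was found for 168 of the 219 placed members, 145 of 173 antisense and 23 of 46 LINC. The median level per kilobase was 90.8 in the 51 members without such a base, 46.0 in the 111 with up to 25% of their exon bases opposite another gene, 132 in the 40 with up to 50% and 200 in the 17 with more. Both the share of bases and the level per kilobase are divided by merged exon length. Median levels without length division were 244, 282, 309 and 392 in the same order.

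**Figure D4:**
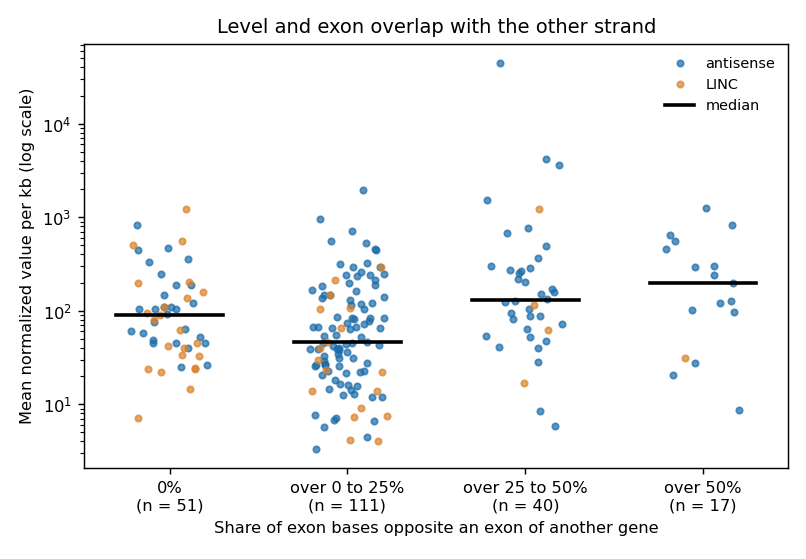
Mean normalized value per kilobase (log scale) of 219 placed members in 4 classes of the share of their exon bases that lie opposite an exon of another gene; points are members, antisense in blue and LINC in orange, and black bars are medians. The medians are 90.8, 46.0, 132 and 200 from left to right, and the classes overlap over most of their range. Both the share and the level per kilobase are divided by merged exon length. Median levels without length division are 244, 282, 309 and 392.

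For 143 members at least 1 opposite gene was matched to a level, and the bases that overlap such genes were multiplied by the level per base of those genes. The product is what these shared bases would hold if only the neighbours were transcribed there. It is partial for 29 of the 143, where other overlapped bases lie on genes without a level. ZNF503-AS2 is not among the 143, because ZNF503 failed the rule on gene size used for matching. The failed match was still used for the pairs above. The product over the 246 bases that ZNF503-AS2 shares with ZNF503 would be 2021 against its level of 990. MIF-AS1, the member of highest level, is not among the 143 either. None of its 687 overlapped bases lies on a gene matched to a level, so it has no product. Across the 143, the product exceeded the member's whole level in 28 members. It reached at least 50% of that level in 48 and at least 10% in 100, with a median of 32.6%. Among the 114 members whose overlapped bases all lie on genes with a level, the counts were 21, 37 and 83 and the median was 33.5%. The product was furthest above the level for PCBP1-AS1, at 8137 against 150, and GNAS-AS1, at 2270 against 193, both partial. PTOV1-AS1 followed with 1540 against 224. PRC1-AS1 had a partial product of 3230, over 1892 of its 2100 overlapped bases, against its level of 1257 and PRMT5-AS1 4128 against 2467. VIM-AS1 had 2382 against 8916 and SLC25A5-AS1 2712 against 6206. VPS9D1-AS1 had 79.4 against 6378, FGD5-AS1 9.63 against 2722 and LRRC75A-AS1 3.21 against 8524, so the products of these 3 were far below their levels. A part of opposite-strand reads in any level was not tested.

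**Figure D5:**
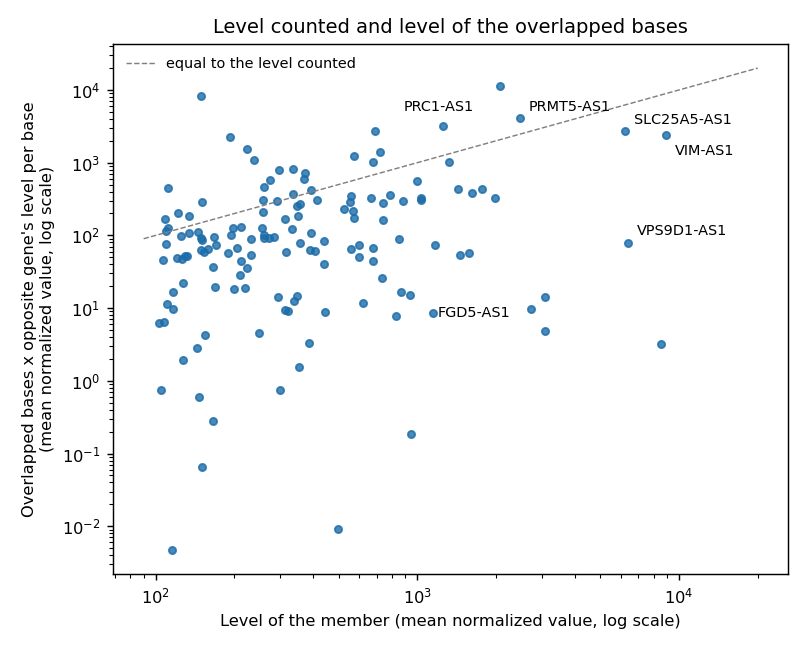
Exon bases that overlap an opposite gene of known level, times the level per base of that gene, against the level of the member itself (both log scales) for 143 members, 29 of them with a partial product; the dashed line marks equality. PRC1-AS1 (3230 against 1257) and PRMT5-AS1 (4128 against 2467) lie above the line. VPS9D1-AS1 (79.4 against 6378) and FGD5-AS1 (9.63 against 2722) lie far below it. In all, 28 members lie above the line. MIF-AS1 has no product and is not shown.

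Groups by partner were described next, beside a share of members of 24.6% over all 731 antisense symbols. The HOX clusters, which set position along the body axis, have 8 antisense symbols that met the name rule, and 3 were members. HOXA-AS3 had 1029, HOXB-AS3 525 and HOXC-AS1 112. The other 5 lay between 14.6 and 84.9, the highest being HOXD-AS2. Partner genes whose names begin with ZNF, ZSCAN or ZKSCAN, zinc finger genes of which many encode transcriptional repressors, have 26 antisense symbols, of which 8 were members. Zinc finger genes with other names are not in this count. ZNF503-AS2 led these 8, followed by ZNF32-AS1 at 357, ZSCAN16-AS1 at 338 and ZNF674-AS1 at 166. ZNF561-AS1, ZNF205-AS1, ZNF337-AS1 and ZNF213-AS1 lay between 111 and 134.

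Because the compounds were studied as activators of ATF6, antisense RNAs of the 83 genes in the ER stress, heat shock and oxidative stress sets were looked up. Of these genes, 4 had an antisense symbol and 1 of these was a member, beside 24.6% of all antisense symbols. The member was STARD4-AS1 at 117, whose partner STARD4, a carrier of cholesterol, had a level of 291. UGDH-AS1 at 42.9, CEBPB-AS1 at 34.8 and STT3A-AS1 at 1.14 were below the limit, while STT3A, a catalytic subunit of the oligosaccharyltransferase, had a level of 15981. Whether any of them changed with a compound was not analysed here.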

How the data were processed

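RNA from 12 HEK293T samples (4 groups of 3) was sequenced; per the labels the libraries were strand-specific mRNA libraries, while the methods speak of whole transcriptomes. The authors aligned reads with DNAstar to GRCh38 (the submitters' notes also name GRCh37), quantified them in ArrayStar and ran DESeq2 1.40.1; the methods name RPKM as the input, and the counter's annotation and strand setting are not given in the sources used here. The deposited tables, 1 per compound, hold a mean normalized value (a signal, the authors' mean over all samples, identical in the 3 tables) with log2 fold change, standard error, Wald statistic, p and adjusted p against vehicle. Those comparison columns are the authors' own results and were not used, so no test was run. The planned fold change test needed values per sample, which were not analysed here.

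Symbols were matched to GENCODE 44 by symbol (172), by RefSeq synonym (42) or by joining neighbouring genes of 1 symbol (5). A match was dropped where place or size differed or where it covered less than 50% of the RefSeq gene (6), and 6 were not found. For the pairs, a named partner whose match had been dropped, such as ZNF503, was still placed by its name. Another 23 symbols had been turned into dates and were left out of comparisons. Levels were divided by merged exon length. Interval and rank steps were tested on simulated data. Python 3.11.15, pandas 2.3.3, numpy 2.4.6, scipy 1.17.1 and matplotlib 3.10.9 were used. Genes named were the 12 antisense and 12 LINC members of highest level, those nearest the limit of 100, listed RNAs of known role, HOX, zinc finger and stress set partners and the 5 most extreme ratios at each end (1 gene under this rule is not reported here); for the other reading frames, the promoters, the overlap examples and the extreme ratios without length correction, genes were chosen after their values were seen. Members and lists were chosen with earlier results of these data known. Alternatives covered the limit, the length used, overlap and distance rules, and the CpG rule.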

Additional observations from a re-analysis of the deposited data

How the results depend on the processing

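No paired analysis was possible because the only value used is a mean over all 12 samples, and for the same reason no sample could be left out in turn; the depth each library reached cannot be read from a mean, and counting without strand would add reads of overlapping genes to antisense RNAs. Of 22 alternative settings, 12 stayed within the margin set for the value and 10 did not, and none turned a direction. The member count was 342 at a limit of 50 and 155 at 200. The share of symbols at the limit, 21.0% at 100, was 31.1% at 50 and 14.1% at 200. The median level per kilobase, 78.0, was 45.2 at a limit of 50, 128.4 at 200 and 286.1 with no length correction. Partner overlap, 83.4% of gene bodies, was 76.9% for exons only and 99.4% with gene ends widened by 1 kb. Close starts, 37.9% within 1 kb, were 26.6% within 500 bases. The median ratio of partner to antisense RNA, 2.13, was 3.72 with no length correction. CpG-rich promoters, 69.2%, were 51.2% under an observed to expected ratio of 0.75 and a GC content of 55%. These shifts follow from the settings' own construction. Spearman's rho of 0.26 lay between 0.20 and 0.27 under the other settings (at the upper end Pearson's r of log2 levels) and was 0.26 with the longest transcripts' lengths, an alternative chosen after seeing the data.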
